A study of Mus musculus with 88 samples.

Results

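Among female control mice whose nucleus accumbens had received herpes simplex vectors with a non-targeted guide, RNA libraries fell into 2 kinds. In 4 libraries (16760, 19719, 19727 and 19762) transcripts of T cells and of the interferon response were abundant, and in the other 4 (19598, 19599, 19750 and 19754) they were much lower. The split was made on these immune transcripts, so the contrast between the sides describes what goes with them and is given with no test. The 8 libraries are all those of the group labelled F_D1-D2-control, out of 87 libraries with counts and 88 labelled in the series. The 4 libraries with abundant immune transcripts are called the high libraries, and the other 4 the low libraries.

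All 8 libraries carry the same labels. They come from female D1-Cre mice backcrossed to C57BL/6, given vectors that do not depend on Cre, the guide gNT that targets no locus, and dead Cas9 joined to CREB(S133D). Accumbens tissue was taken 6 days after surgery, its total RNA was depleted of ribosomal RNA, and the libraries were sequenced in batch 1. The labels record no tissue without vector, and they do not say whether each library is 1 animal. The other 79 libraries belong to 11 groups of both sexes with the guide to Fosb or the control guide, given vectors that do or do not need Cre, and sequenced in batches 1 and 2.

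Herpes simplex vectors enter neurons and are sensed as virus by the tissue around them. T cells and natural killer cells release interferon gamma, which raises antigen presentation, guanylate-binding proteins and chemokines in nearly every cell of the tissue. Microglia, astrocytes and vessel walls each answer with their own programmes, while medium spiny neurons, the principal cells of the accumbens, carry the dopamine receptors for which this region is studied.

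An immune index was computed for each library as the mean log2 CPM of Cd3e, Gzmb, Igtp and B2m, where CPM is a count scaled to library size (TMM) in the usual parts-per-million unit. The index was 7.28, 6.78, 7.05 and 6.97 in the high libraries 16760, 19719, 19727 and 19762, against 2.88, 1.76, 1.9 and 1.14 in the low libraries 19598, 19599, 19750 and 19754. No library of the group lay in the gap of 3.91 between the sides. The other 79 libraries had a median of 6.77 and ran from 1.69 to 7.72, and 37 of them were at or above the lowest high library. Only 2 of the 79 were at or below the highest low library, both from male control groups, and none of the 42 other female libraries was. Within the series it is the low libraries that are rare.

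**Figure D1:**
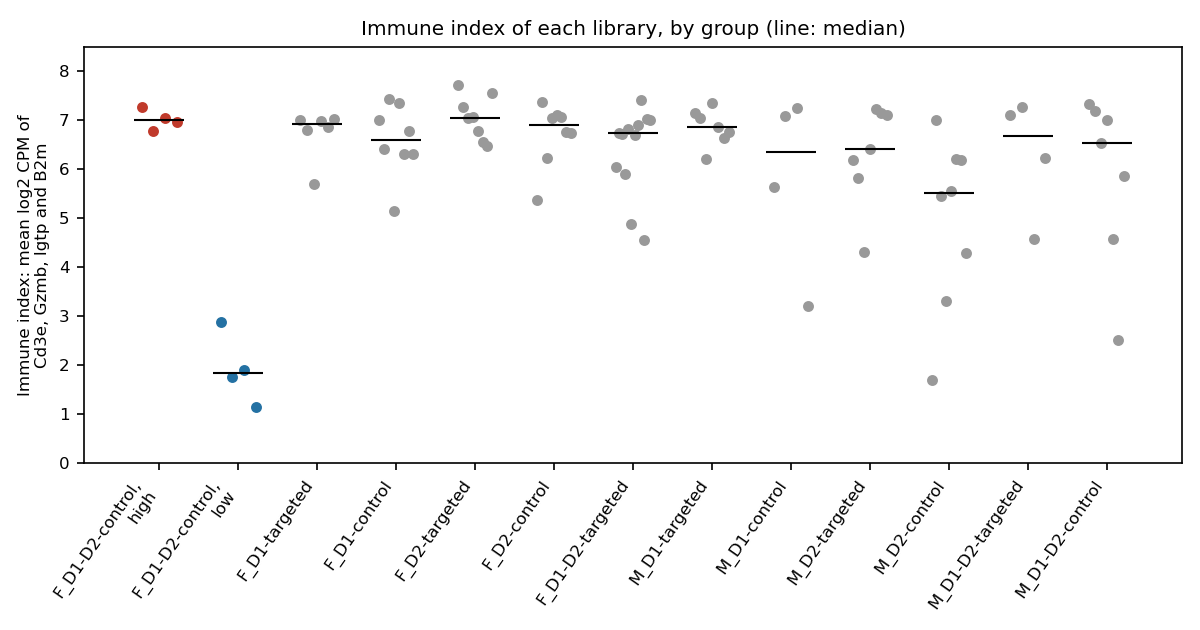
Immune index of each library, as the mean log2 CPM of Cd3e, Gzmb, Igtp and B2m, by group on the horizontal axis. Each point is 1 library and each line a group median. The 4 high libraries lie between 6.78 and 7.28, and the 4 low ones between 1.14 and 2.88. Of the 79 other libraries, 37 are at or above the lowest high library and 40 lie between the sides.

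Depth was similar on both sides, 23326739 to 35824452 counts in the high libraries against 29368389 to 37533949 in the low ones. Composition differed: the 10 most abundant genes held 6.08% to 11.6% of counts against 10.5% to 24.6%, mitochondrial transcripts 2.54% to 7.58% against 5.35% to 19.8%, and small RNA genes 5.51% to 11.8% against 9.52% to 24%. With the mitochondrial share added to the model of the other libraries described below, 6568 genes rose with the index and 5435 fell, against 6442 and 5702 without it. Among those other libraries 4 had over 90% of counts in 10 genes, and without them 6188 genes rose and 6605 fell. Fosb, which the control guide does not target, had 8.66, 4.32, 5.13 and 5.56 CPM in the high libraries against 4.71, 7.8, 8.86 and 7.41 CPM in the low ones, and the sides overlapped.

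The sides differed across a large share of the transcriptome. Of 18776 genes with a mean of at least 0.5 CPM over the 8 libraries, 2588 (13.8%) were at least 2-fold higher in the high libraries with no overlap between the sides, and 192 (1.02%) were at least 2-fold lower. Without the fold limit, 4199 genes (22.4%) lay wholly higher and 2454 (13.1%) wholly lower. The median log2 difference over all genes was 0.002. Because the libraries were chosen by outcome, these shares describe the sides and are the background for the gene lists below. Without library 19762 the count of genes at least 2-fold lower was 320.

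To test genes in libraries that the split did not use, the slope of each gene on the immune index was fitted in the other 79 libraries with edgeR's quasi-likelihood test, with group and batch in the model. A slope is the change in log2 CPM for each unit of the index, and p-values were adjusted by Benjamini-Hochberg over all 25173 genes tested. At an adjusted p under 0.05, 6442 genes (25.6%) rose with the index and 5702 (22.7%) fell. Of the 2588 genes higher on the high side, 2547 (98.4%) also rose with the index, and of the 192 lower genes 131 (68.2%) fell with it. None of either kind had a slope called in the opposite direction. These p-values measure the spread between libraries, and the slope is an association with immune transcripts, not an effect of a treatment. Because the index is made of T cell and interferon response genes, slopes of other genes of these kinds are no independent results.

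T cell receptor and cytotoxic genes set the sides apart, as the rule fixed. Cd3e, the receptor chain that marks T cells (mm10, chromosome 9, 44998740 to 45009627), had 8.13, 6.2, 4.97 and 3.22 CPM in the high libraries against 0.143, 0.0791, 0.0742 and 0.0595 CPM in the low ones. Gzmb, the granzyme of killer lymphocytes, had 77.5, 42.1, 71 and 85.9 CPM in the high libraries against 3.71, 0.659, 0.817 and 0.685 CPM in the low ones. Of the low libraries, 19598 held the most of both. Of 18 T cell genes, 17 lay wholly higher (background 22.4%), with a median log2 difference of 4.91 for the list. All 15 cytotoxic and natural killer genes did so, with a median of 5.38.

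Among co-receptors, the one of killer T cells separated the sides and the one of helper T cells did not. Cd8a, the co-receptor of killer T cells, had 13.3, 9.19, 13.4 and 10.7 CPM in the high libraries against 0.476, 0.158, 0.272 and 0.0595 CPM in the low ones, a log2 difference of 5.52. Cd4 had 34, 21.9, 25.4 and 19.6 CPM against 12, 19.6, 26.6 and 16.9 CPM, and its sides overlapped. Foxp3, the factor of regulatory T cells, also overlapped, at 4.65, 4.3, 3.4 and 2.78 CPM in the high libraries against 2.81, 2.79, 2.45 and 2.35 CPM in the low ones, with high library 19762 just under low library 19598. In the other 79 libraries both rose with the index, Cd4 by 0.294 ± 0.0648 (adjusted p = 0.000108, edgeR) and Foxp3 by 0.063 ± 0.0244 (adjusted p = 0.0262, edgeR). In the low libraries both stood far above Cd3e, so their values there cannot be read as amounts of T cells. Which cells held them cannot be read from whole tissue. Cd4 and Foxp3 were chosen after their values were seen.

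Ifng, the interferon gamma ligand itself, had 6.25, 5.35, 14.6 and 6.75 CPM in the high libraries against 0.0238, 0, 0.124 and 0.0298 CPM in the low ones. Library 19727 held the most of the 8. Ifnb1, a type I interferon, was at or below 0.117 CPM in every high library and 0 in every low library, and no fold is given for it. In the other 79 libraries Ifng rose with the index by 1.58 ± 0.118 (slope ± SE, adjusted p = 1.6e-19, edgeR). The index holds Gzmb of the same list, so this is no independent result.

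Receptors that restrain T cells stood higher too. Cd274, which encodes the ligand PD-L1, had 114, 69.1, 106 and 66.9 CPM in the high libraries against 5.04, 2.79, 2.82 and 1.34 CPM in the low ones, a log2 difference of 4.97. Its receptor gene Pdcd1 had 10.1, 3.61, 5.06 and 6.45 CPM against 0.214, 0.158, 0.198 and 0.0595 CPM. Of the 7 measured checkpoint genes, 6 lay wholly higher. All 8 of the list that were tested in the other libraries rose with the index, which itself holds T cell genes.

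B cell and plasma cell transcripts varied more among the high libraries than T cell ones. Igkc, the immunoglobulin light chain, had 114, 50, 106 and 24.4 CPM in the high libraries against 1.02, 0.527, 3.37 and 0.327 CPM in the low ones, so that library 19762 held the least of the high side and library 19750 the most of the low side. Ighg2c had 16.2, 1.14, 13.7 and 4.41 CPM against 0.333, 0.158, 0.198 and 0.149 CPM. All 9 measured genes of the list lay wholly higher. Neutrophil genes were near 0 on both sides, and none of the 8 reached 0.5 CPM on average over the 8 libraries.

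Guanylate-binding proteins and immunity-related GTPases, which attack the vacuoles and membranes of intracellular microbes, are classic targets of interferon gamma. Igtp had 662, 522, 595 and 619 CPM in the high libraries against 34.2, 16.2, 13.8 and 6.01 CPM in the low ones. Gbp2 had 965, 724, 935 and 963 CPM against 28.4, 16.2, 16.6 and 5.78 CPM, a log2 difference of 5.93. All 15 genes of the list lay wholly higher, with a median log2 difference of 5.34. The 14 of them outside the index all rose with it, which is no independent result because the index holds Igtp of the same list. The high libraries were within a narrow band for these genes, with an SD of 0.14 on the log2 scale for Igtp against 1.02 among the low libraries. Reads of close family members, and of Igtp and Irgm2 whose annotated spans overlap on chromosome 11, cannot be told apart with certainty.

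Promoter windows of Igtp, Irgm2 and Gbp2, and of the chemokine gene Cxcl10, are shown because these genes moved together. Each window runs from 250 bases before to 50 bases after the start site in RefSeq (GRCm38.p6), 5′ to 3′ on the gene's strand. Capitals mark matches on either strand to GAAA, any 2 bases and GAAA, the core that interferon-stimulated response elements share, or to TTCNNNGAA, the core of the gamma-activated site. The 4 windows are Igtp on the plus strand at chr11:58199306-58199605, Irgm2 on the plus strand at chr11:58214727-58215026, Gbp2 on the plus strand at chr3:142620413-142620712 and Cxcl10 on the minus strand at chr5:92348840-92349139.
Igtp: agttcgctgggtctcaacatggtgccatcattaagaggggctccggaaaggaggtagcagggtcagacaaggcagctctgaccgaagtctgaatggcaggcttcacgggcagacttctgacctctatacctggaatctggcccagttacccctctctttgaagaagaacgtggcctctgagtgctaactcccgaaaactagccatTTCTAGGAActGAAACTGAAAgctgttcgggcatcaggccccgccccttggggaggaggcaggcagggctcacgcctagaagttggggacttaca
Irgm2: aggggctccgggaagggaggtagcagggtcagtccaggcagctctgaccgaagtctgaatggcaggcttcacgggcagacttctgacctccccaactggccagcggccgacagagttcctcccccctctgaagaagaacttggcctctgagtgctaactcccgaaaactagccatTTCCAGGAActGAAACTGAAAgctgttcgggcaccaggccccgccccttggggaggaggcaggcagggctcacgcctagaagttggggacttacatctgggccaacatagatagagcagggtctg
Gbp2: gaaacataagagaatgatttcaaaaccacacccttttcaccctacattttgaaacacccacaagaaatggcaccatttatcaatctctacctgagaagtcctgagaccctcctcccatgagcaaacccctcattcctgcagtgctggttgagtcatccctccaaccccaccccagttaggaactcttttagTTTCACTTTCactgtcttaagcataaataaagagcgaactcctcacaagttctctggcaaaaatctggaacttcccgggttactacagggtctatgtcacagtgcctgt
Cxcl10: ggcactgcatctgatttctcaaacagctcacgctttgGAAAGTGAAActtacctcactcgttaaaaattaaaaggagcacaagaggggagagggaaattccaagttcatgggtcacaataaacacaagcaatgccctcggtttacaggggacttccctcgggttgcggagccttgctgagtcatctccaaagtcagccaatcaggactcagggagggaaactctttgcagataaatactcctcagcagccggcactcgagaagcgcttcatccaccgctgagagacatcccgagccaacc

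The first motif, a pair of GAAA runs 2 bases apart, was in the window of all 9 GTPase genes that have one in RefSeq, and TTCNNNGAA in 6 of them. The motifs were searched on both strands and may overlap. Among 27025 genes with a window, 3.99% held the first and 9.55% the second. Of the antiviral list, 13 of 23 windows held the GAAA pair, and 158 of the 1780 windows (8.88%) of genes at least 2-fold higher did. Of the 94 windows of genes at least 2-fold lower, 2 did. The pair was in 2 of 10 chemokine windows, 4 of 14 for MHC class I and the immunoproteasome, and 0 of 4 for class II. TTCNNNGAA was in 10.8% of the windows of the higher genes and 9.57% of those of the lower ones. A match is a run of letters in the window and not a measured binding site.

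Antiviral genes induced by interferon followed the same split. Oas3, a sensor of double-stranded RNA, had 63.6, 46, 94.4 and 32.8 CPM in the high libraries against 0.88, 0.448, 0.445 and 0.268 CPM in the low ones, a log2 difference of 6.72. Library 19727 was the highest of the high side for Oas3 and for Oasl1, at 94.4 and 55.8 CPM. All 32 genes of the list lay wholly higher, with a median of 4.57, and 31 of 32 rose with the index, which itself holds interferon response genes. Ifi27 was the exception, with 68.9, 75.1, 51 and 101 CPM in the high libraries against 33.7, 20.6, 19 and 21.3 CPM in the low ones and a slope of 0.079 ± 0.0413 (adjusted p = 0.105, edgeR).

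Antigen presentation was higher in both classes. B2m, the light chain of MHC class I, had 1400, 1070, 1440 and 1410 CPM in the high libraries against 115, 85.6, 126 and 47.5 CPM in the low ones. Tap1, which carries peptides to class I, had 459, 311, 407 and 352 CPM against 17, 9.57, 8.96 and 4.47 CPM. Cd74, the invariant chain of class II, had 1570, 637, 755 and 840 CPM in the high libraries against 20.8, 12, 23.8 and 5.95 CPM in the low ones, and library 16760 held the most. All 17 class I and immunoproteasome genes and all 7 class II genes lay wholly higher, with median log2 differences of 4.52 and 5.69. Reads of near-identical class I genes may have been split between them.

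Chemokines that draw T cells stood among the largest differences. Cxcl10 had 305, 255, 381 and 274 CPM in the high libraries against 5.66, 3.87, 7.1 and 1.04 CPM in the low ones, and Cxcl9 182, 75.9, 143 and 158 CPM against 3.97, 1.21, 2.4 and 0.476 CPM, each a log2 difference of 6.37. Of 14 measured chemokines 12 lay wholly higher. Cxcl12, which vessels and neurons make at rest, lay wholly lower, at 12.7, 12.2, 13.4 and 12.6 CPM in the high libraries against 21, 18.7, 22.5 and 14.7 CPM in the low ones. It fell with the index in the other libraries by 0.267 ± 0.0434 (adjusted p = 2.96e-07, edgeR). Cx3cl1, the neuronal ligand of the microglial fractalkine receptor, overlapped between the sides. Cxcl12 and Cx3cl1 were chosen after their values were seen.

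Feedback genes and inflammatory cytokines were higher too. Socs3, an inhibitor of JAK and STAT signalling, had 138, 71.7, 103 and 82.7 CPM in the high libraries against 2.5, 2.06, 4.18 and 1.34 CPM in the low ones, a log2 difference of 5.34. Il1b had 30.8, 18.5, 15.1 and 24.8 CPM against 0.333, 0.316, 0.445 and 0.179 CPM. Of 12 measured genes 11 lay wholly higher and Il18 overlapped. Ifngr1, the receptor chain for interferon gamma, differed by 1.49 on the log2 scale, less than most of the genes it acts on.

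**Figure D2:**
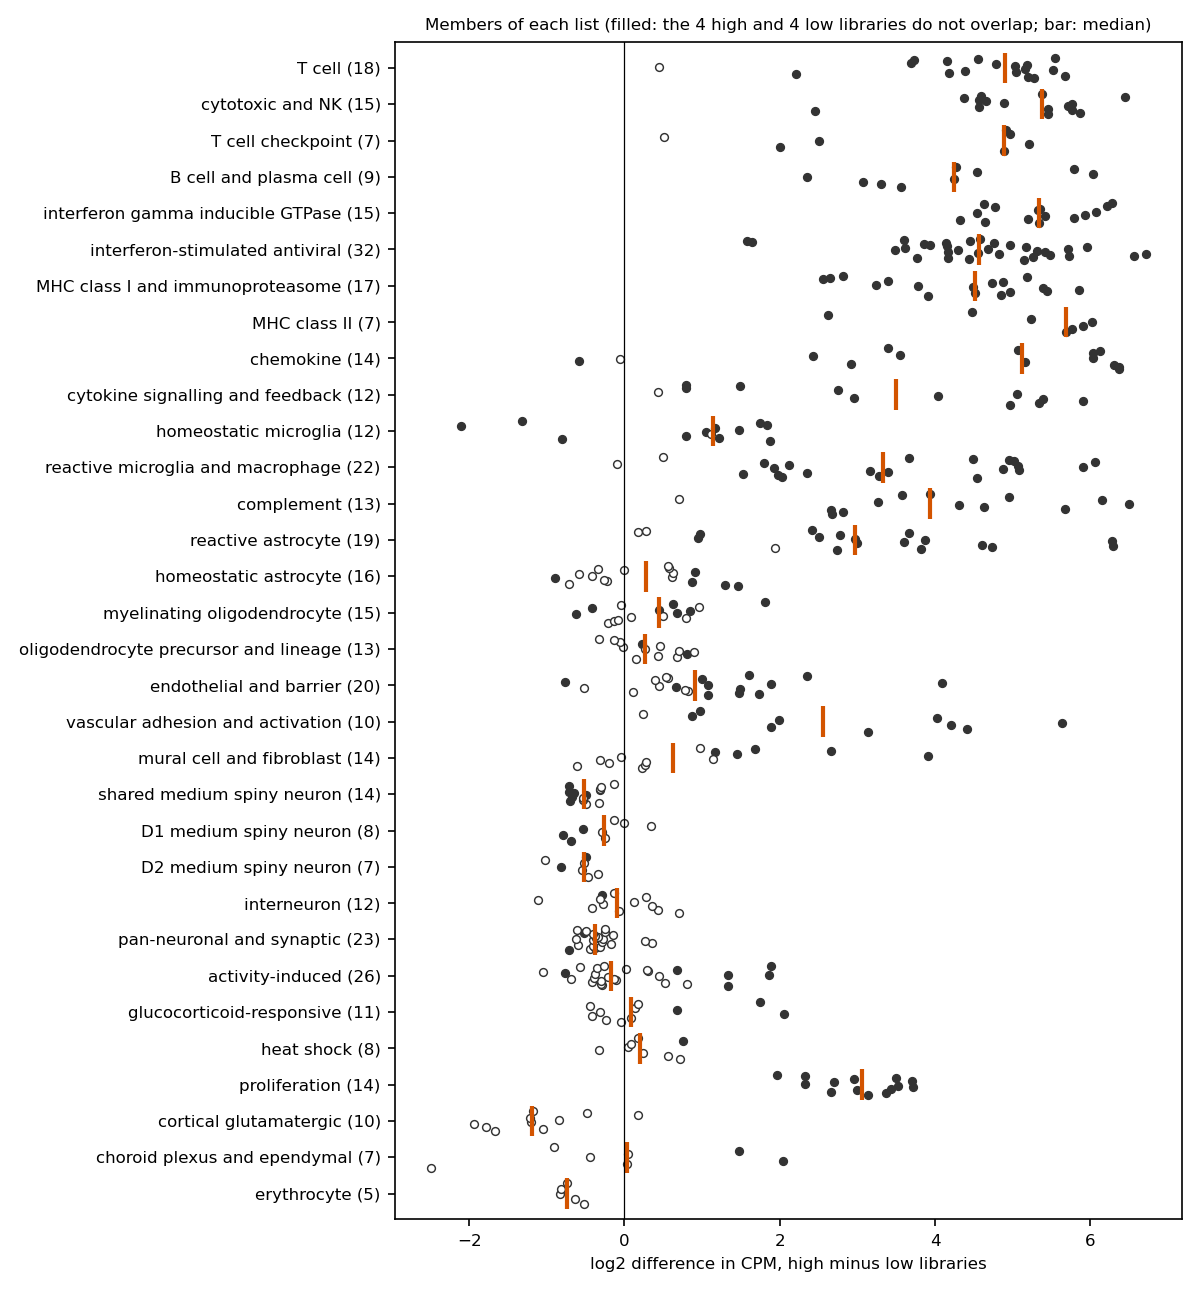
Log2 difference in CPM, high minus low libraries, on the horizontal axis, for each measured member of the gene lists named on the left, with the number of members in brackets. Filled points are genes whose 4 high and 4 low libraries did not overlap, and bars are list medians. The immune, complement and reactive glial lists have medians of 2.97 or more. The medians are 0.44 for myelin, 0.26 for oligodendrocyte precursors and lineage, -0.1 for interneurons and -0.38 for general neuronal genes. Medium spiny neuron medians run from -0.27 to -0.52, and the cortical median is -1.19.

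Microglia, the resident macrophages of the brain, split into genes that were higher and genes that were lower. Tmem119, a surface protein of resident microglia (mm10, chromosome 5, 113793729 to 113800516), had 108, 87.7, 83.9 and 88.1 CPM in the high libraries against 24.7, 23.6, 27.7 and 23.3 CPM in the low ones. The sides were far apart relative to their SDs of 0.16 and 0.11, with a log2 difference of 1.88, or 3.68-fold. Csf1r, the receptor that keeps microglia alive, had 539, 365, 382 and 300 CPM in the high libraries against 88.5, 112, 159 and 86.3 CPM in the low ones. In bulk tissue more cells of a type and more RNA per cell cannot be told apart.

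Gpr34, a lysophosphatidylserine receptor of resident microglia (mm10, chromosome X, 13632089 to 13640858), went the other way. It had 3.06, 9.65, 6.29 and 8.45 CPM in the high libraries against 23.1, 32.5, 29.9 and 24.5 CPM in the low ones, 4.29-fold lower with no overlap. P2ry12, the purine receptor that guides microglial processes, had 22.4, 35.5, 34.5 and 31.4 CPM against 40.8, 61.2, 69.6 and 47.1 CPM. Fcrls had 13.3, 26, 14.2 and 20.6 CPM against 43.8, 43.7, 56.3 and 36.3 CPM. These 3 lay wholly lower, 8 of the other 9 homeostatic genes lay wholly higher, and Sall1 overlapped. P2ry12 and Fcrls were chosen after their values were seen.

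In the other 79 libraries Tmem119 and Gpr34 had slopes in the direction of the contrast, and P2ry12 and Fcrls had no called slope. Tmem119 rose with the index by 0.342 ± 0.0265 (adjusted p = 8.01e-19, edgeR) and Gpr34 fell by 0.22 ± 0.0654 (adjusted p = 0.00379, edgeR). P2ry12 had a slope of 0.004 ± 0.0319 (adjusted p = 0.939, edgeR) and Fcrls one of -0.022 ± 0.0716 (adjusted p = 0.833, edgeR). With a slope for each sex, the lower genes were not called downward in females: Gpr34 had -0.18 ± 0.153 (adjusted p = 0.385, edgeR) and Fcrls rose by 0.539 ± 0.161 (adjusted p = 0.00594, edgeR), opposite to its lower level in the high libraries. In males Fcrls had -0.132 ± 0.0725, and the difference between the sexes was 0.672 ± 0.176 (adjusted p = 0.0265, edgeR). With 1 slope for both sexes, 9 of the 12 genes of the list rose and 1 fell, against backgrounds of 25.6% and 22.7%.

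Genes of activated microglia and of macrophages from blood were higher by more. Cybb, the oxidase subunit of phagocytes, had 194, 96.3, 148 and 127 CPM in the high libraries against 2.9, 1.58, 2.65 and 1.31 CPM in the low ones, a log2 difference of 6.06. Lgals3 had 134, 87.1, 94.9 and 113 CPM against 1.31, 2.21, 2.72 and 1.07 CPM. Lyz2, lysozyme of myeloid cells, had 379, 224, 244 and 468 CPM in the high libraries against 15.3, 7.12, 12.7 and 5.42 CPM in the low ones. Of 22 genes 20 lay wholly higher, with a median log2 difference of 3.33. Apoe and Mrc1, the mannose receptor of macrophages along vessels, overlapped, and Mrc1 fell with the index by 0.166 ± 0.0446 (adjusted p = 0.00136, edgeR). Both were chosen after their values were seen.

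Arg1, the arginase of some macrophages, was uneven within the high side. It had 148, 19.6, 20.3 and 135 CPM in the high libraries 16760, 19719, 19727 and 19762, against 0.523, 0.633, 0.371 and 0.149 CPM in the low ones. Libraries 16760 and 19762 thus held several times the level of the other 2, although the index of all 4 lay within 0.5. Outside the lists the largest differences were in Ly6i, Il1rn, Arg1, Acod1 and Ly6c2, at 7.14, 7.02, 6.96, 6.93 and 6.87 on the log2 scale, genes of myeloid cells and of the answer to interferon and interleukin 1.

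Complement genes, which microglia, astrocytes and vessels make, were higher in the classical and the alternative pathway. C3, the central component, had 702, 288, 268 and 297 CPM in the high libraries against 5.57, 3.93, 6.36 and 1.64 CPM in the low ones. Cfb, of the alternative pathway, had 210, 85.1, 125 and 129 CPM against 3.07, 1.53, 1.88 and 1.13 CPM. C1qa, which microglia express at rest, differed less, with 581, 459, 408 and 582 CPM in the high libraries against 76.6, 92.4, 118 and 45.5 CPM in the low ones and a log2 difference of 2.67. Of 13 genes 12 lay wholly higher, and all 13 rose with the index.

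Astrocytes carry a resting set of genes for transport and metabolism and a reactive set of filaments and secreted proteins. Gfap, the reactive filament (mm10, chromosome 11, 102887336 to 102900912), had 1030, 806, 894 and 955 CPM in the high libraries against 157, 158, 340 and 41.7 CPM in the low ones, a log2 difference of 2.74 or 6.68-fold. The high libraries lay close together, with an SD of 0.15, and the low ones spread over an SD of 1.26, with library 19750 highest and library 19754 lowest. In the other 79 libraries Gfap rose with the index by 0.445 ± 0.0533 (adjusted p = 4.54e-11, edgeR). Gfap was among the markers given with the split, though it is not in the index.

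Secreted reactive genes differed by more. Lcn2, lipocalin 2, had 93.8, 48.4, 36.7 and 106 CPM in the high libraries against 0.857, 0.87, 1.16 and 0.417 CPM in the low ones, a log2 difference of 6.29. Timp1, an inhibitor of matrix proteases, had 28.2, 20.5, 18.7 and 27.3 CPM against 0.238, 0.448, 0.445 and 0.0595 CPM. Serpina3n had 779, 472, 431 and 528 CPM in the high libraries against 20.7, 23.2, 47.4 and 7.32 CPM in the low ones. Of 19 reactive genes 16 lay wholly higher, with a median log2 difference of 2.97, and 16 rose with the index. Fbln5, Amigo2 and Nes overlapped between the sides. Some of these genes are made by vessels or leukocytes as well.

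Individual resting astrocyte genes differed in both directions. Aldh1l1, the folate enzyme that marks astrocytes, had 160, 146, 141 and 117 CPM in the high libraries against 47.5, 51, 60.5 and 45.4 CPM in the low ones, a log2 difference of 1.46. Aqp4, the water channel of astrocyte endfeet, had 241, 288, 408 and 317 CPM against 107, 131, 173 and 104 CPM. Both rose with the index, Aldh1l1 by 0.422 ± 0.0419 (adjusted p = 4.06e-14, edgeR) and Aqp4 by 0.302 ± 0.038 (adjusted p = 2.24e-10, edgeR).

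Glul, glutamine synthetase, lay wholly lower, at 591, 765, 629 and 698 CPM in the high libraries against 1150, 1240, 1230 and 1320 CPM in the low ones, 1.85-fold lower. Slc1a2, the main glutamate transporter, had 939, 1310, 1510 and 1030 CPM against 1480, 1980, 2540 and 1860 CPM and overlapped in 1 library of each side. Its partner Slc1a3 lay wholly higher, at 906, 1050, 905 and 964 CPM in the high libraries against 568, 506, 646 and 402 CPM in the low ones. In the other libraries Glul fell by 0.223 ± 0.0305 (adjusted p = 3.03e-09, edgeR), Slc1a2 fell by 0.159 ± 0.0521 (adjusted p = 0.00854, edgeR) and Slc1a3 rose by 0.245 ± 0.0377 (adjusted p = 8.37e-08, edgeR). Slc1a2 and Slc1a3 were chosen after their values were seen.

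Dio2, the enzyme with which astrocytes activate thyroid hormone, was outside the lists and lower by more. It had 14.5, 17.7, 31.5 and 25.5 CPM in the high libraries against 59.6, 61.1, 78 and 67.7 CPM in the low ones, a log2 difference of -1.63. It fell with the index by 0.351 ± 0.0581 (adjusted p = 5.09e-07, edgeR). Of the 16 resting astrocyte genes 4 lay wholly higher and 1 wholly lower, where 22.4% and 13.1% of all genes did. Their median log2 difference was 0.28 and ran from -0.03 to 0.39 when each library was left out. In the other libraries 4 of the 16 rose and 6 fell, against backgrounds of 25.6% and 22.7% over all genes.

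**Figure D3:**
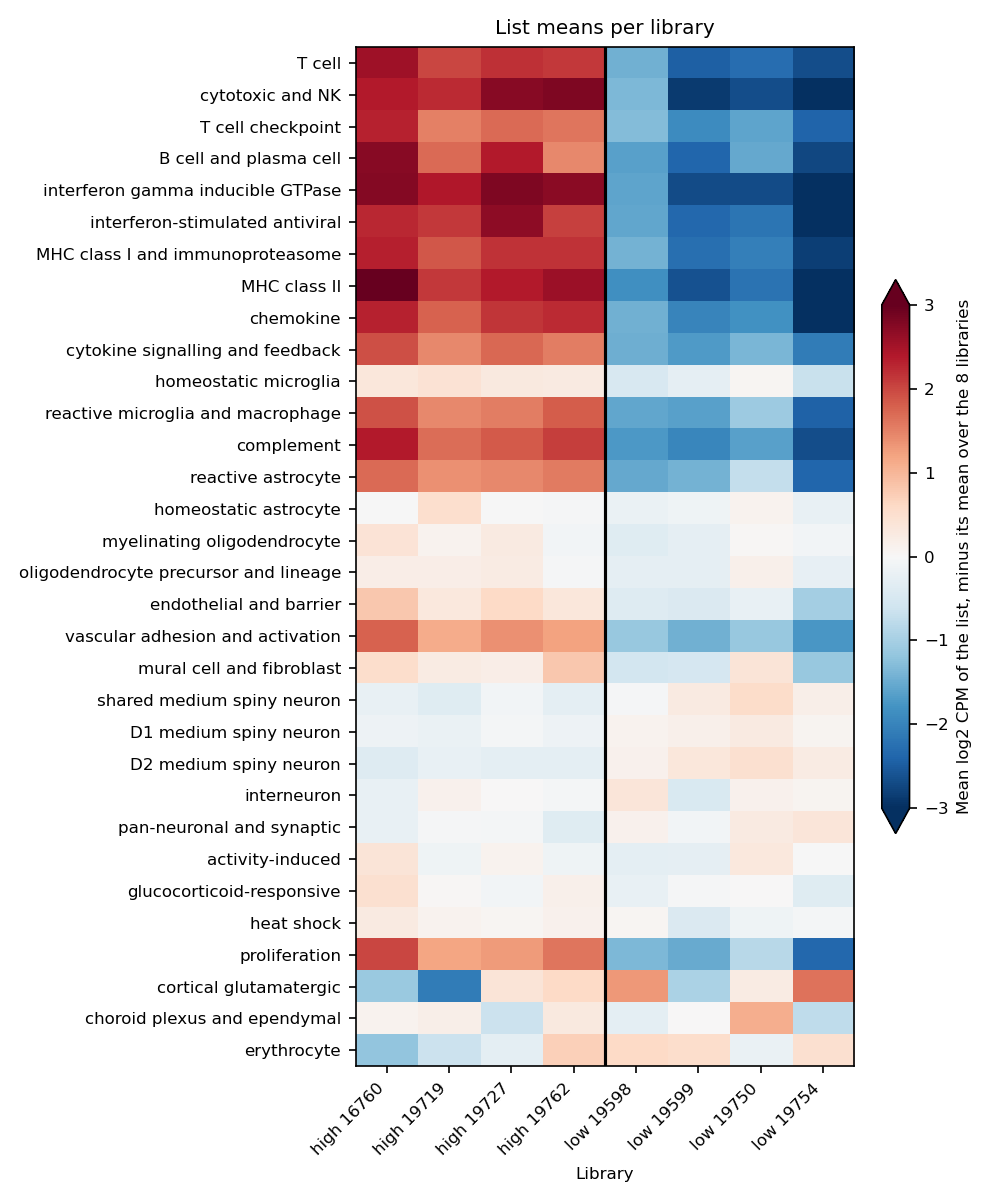
Mean log2 CPM of each gene list in each of the 8 libraries, minus the list's mean over the 8, with the high libraries left of the black line. The colour scale stops at -3 and 3. The immune and reactive lists are above their mean in all 4 high libraries and below it in all 4 low ones, whereas the cortical list varies within both sides.

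Among the proteins that build the myelin sheath, several overlapped between the sides. Mog, a glycoprotein on the outer face of myelin, had 46.6, 50.5, 50.4 and 41.3 CPM in the high libraries against 40.8, 51.5, 49 and 58.9 CPM in the low ones. Its sides overlapped, with low library 19754 the highest of the 8 and low library 19598 the lowest. In the other 79 libraries its slope was -0.007 ± 0.037 (adjusted p = 0.896, edgeR). Mog was chosen after its values were seen.

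Trf, transferrin, which oligodendrocytes secrete, had the largest difference of the myelin list. It had 1080, 515, 617 and 611 CPM in the high libraries against 183, 165, 240 and 193 CPM in the low ones, a log2 difference of 1.81, and it rose with the index by 0.408 ± 0.0432 (adjusted p = 5.09e-13, edgeR). Ermn, a cytoskeletal protein of myelin, lay wholly higher at 153, 99.8, 139 and 102 CPM against 56.1, 66.4, 83.6 and 66.8 CPM. Aspa, an enzyme of oligodendrocytes, lay wholly lower, and so did Mal, a membrane proteolipid of myelin, at 193, 214, 193 and 146 CPM in the high libraries against 264, 276, 280 and 323 CPM in the low ones. Of the 15 myelin genes 5 lay wholly higher and 2 wholly lower, where 22.4% and 13.1% of all genes did. In the other libraries 7 rose and 1 fell with the index, against 25.6% and 22.7% of all genes. Of 13 genes of precursors and the lineage 2 lay wholly higher, Olig2 and Neu4, against the same 22.4%. Pdgfra, the receptor that marks precursors, overlapped.

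Vessel walls showed the adhesion molecules through which leukocytes leave the blood. Vcam1, the ligand of integrin alpha 4 on lymphocytes (mm10, chromosome 3, 116109949 to 116129688), had 327, 252, 312 and 276 CPM in the high libraries against 34.1, 33.4, 43.3 and 24.5 CPM in the low ones, a log2 difference of 3.13 or 8.75-fold. Icam1, the ligand of leukocyte beta 2 integrins, had 80.4, 51.2, 69 and 60.9 CPM against 3.62, 2.82, 5.89 and 1.31 CPM. Both rose with the index in the other libraries, Vcam1 by 0.685 ± 0.0449 (adjusted p = 2.54e-22, edgeR) and Icam1 by 0.875 ± 0.0513 (adjusted p = 1.11e-24, edgeR). Astrocytes and leukocytes express Vcam1 or Icam1 too, so these values are not of vessels alone.

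P-selectin, which is made by endothelium and platelets and catches rolling leukocytes, was all but missing from the low side. Selp had 6.28, 2.08, 2.52 and 1.87 CPM in the high libraries against 0, 0, 0.0247 and 0 CPM in the low ones. It rose with the index by 0.888 ± 0.171 (adjusted p = 1.08e-05, edgeR). Of 10 measured adhesion genes 9 lay wholly higher, with a median log2 difference of 2.56, and all 11 of the list that were tested rose with the index. Jam2, a junction protein, overlapped.

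Barrier and identity genes of endothelium were higher by less. Ly6a, known in mice as a target of interferons as well as an endothelial marker, had 323, 194, 254 and 291 CPM in the high libraries against 25.6, 15.3, 13.5 and 10.2 CPM in the low ones. Vwf, von Willebrand factor, had 129, 59.9, 74.1 and 68 CPM against 11.6, 14.1, 26.8 and 13 CPM. Pecam1, a junction protein also on leukocytes, had 63.3, 29, 40.7 and 35 CPM in the high libraries against 14.4, 11.6, 18.5 and 6.85 CPM in the low ones. Cldn5, the claudin of the barrier, differed by 1.08 on the log2 scale, while the transporter gene Slco1a4 overlapped with a difference of -0.52. Itm2a lay wholly lower, at 19.9, 33.7, 31 and 34.7 CPM against 53.5, 56.5, 47 and 42.2 CPM. Of 20 genes 11 lay wholly higher, with a median log2 difference of 0.91, and 16 rose and 1 fell with the index. Cldn5, Slco1a4 and Itm2a were chosen after their values were seen.

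Gkn3, which marks arterial endothelium in mouse brain, was outside the lists and had 0.394, 1.23, 0.303 and 0.645 CPM in the high libraries against 3.78, 2.08, 3.84 and 1.91 CPM in the low ones. It fell with the index by 0.471 ± 0.0589 (adjusted p = 1.98e-10, edgeR). Among mural cells and fibroblasts, Col3a1, a fibrillar collagen, had 24.2, 17, 14.8 and 21.5 CPM in the high libraries against 2.55, 3.03, 5.52 and 1.82 CPM in the low ones. Anpep, an aminopeptidase of pericytes and myeloid cells, had 39.4, 8.73, 14.3 and 11.7 CPM against 1.21, 0.659, 1.31 and 0.893 CPM. Of 14 genes 5 lay wholly higher, against 22.4% of all genes. The contractile genes Acta2 and Myh11 were set apart in 1 low library, 19750, which had 29.5 and 22.2 CPM where the other 7 libraries had at most 9.4 and 5.67 CPM. Choroid plexus and ependymal genes had a median log2 difference of 0.03, with 2 of 7 wholly higher, against the same 22.4%.

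**Figure D4:**
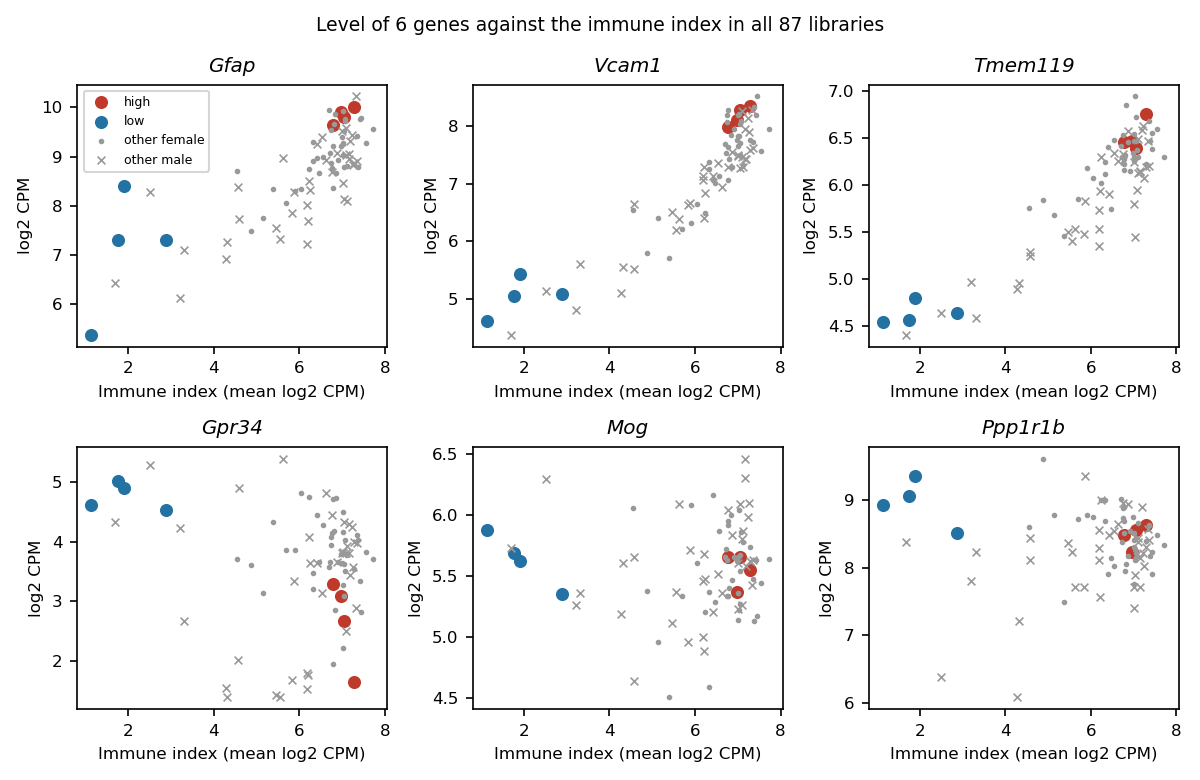
Log2 CPM of 6 genes (vertical axes) against the immune index (horizontal axes) in all 87 libraries, with the 4 high libraries in red, the 4 low in blue, other females as dots and other males as crosses. Gfap, Vcam1 and Tmem119 climb with the index, Gpr34 falls, and Mog and Ppp1r1b show no called slope.

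Medium spiny neuron genes were lower on the high side by small amounts. Drd1, the D1 dopamine receptor, had 209, 180, 248 and 261 CPM in the high libraries against 308, 368, 373 and 395 CPM in the low ones, a log2 difference of -0.69 or 1.61-fold lower. Drd2, the D2 receptor, had 71.3, 55.6, 62.4 and 51.1 CPM against 61.8, 88.4, 110 and 76.8 CPM and overlapped. Ppp1r1b, which encodes DARPP-32, overlapped at 398, 359, 377 and 302 CPM against 366, 538, 659 and 488 CPM. Library 19598 was the low library that came nearest to the high ones for Drd2 and Ppp1r1b, which were chosen after their values were seen.

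Neuropeptides followed the same order. Tac1, the precursor of substance P, had 96.8, 129, 133 and 216 CPM in the high libraries against 296, 225, 219 and 219 CPM in the low ones, with the highest high library just below the lowest low ones. Penk, the enkephalin precursor, had 592, 614, 572 and 493 CPM against 598, 971, 1140 and 708 CPM and overlapped. Of the 14 genes shared by medium spiny neurons 7 lay wholly lower and none wholly higher, with a median log2 difference of -0.52. Of 8 D1 genes 3 lay wholly lower, and of 7 D2 genes 2, with medians of -0.27 and -0.52. With total-count scaling the D1 median was -0.14. The background for wholly lower genes was 13.1%.

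Over the other libraries as a whole this direction was not called. With all 79, the shared list had 1 gene that rose with the index, Rgs2, and 0 that fell at an adjusted p under 0.05. At an unadjusted p under 0.05, 0 of the shared genes fell in the edgeR fit, against 1 by DESeq2 and 1 by limma-voom. Of the 8 D1 genes 1 fell, Eya1, and of the 7 D2 genes 0 fell in edgeR, with 0 at an unadjusted p under 0.05 against 1 by DESeq2 and 1 by limma-voom. In the 42 female libraries alone 11 of the 14 shared genes fell, with a median slope of -0.234, and 4242 genes fell in all. The 12 libraries of F_D1-D2-targeted share sex, strain and vectors that do not need Cre with the 8 but carry the guide to Fosb. In them alone 11 of the 14 fell, with a median of -0.4, and 867 genes fell in all. Library 19610, of the lowest index in both sets, had 96.8% of its counts in 10 genes. Libraries 17907 and 18432, of the highest index among the 42, had 95.5% and 94%. The index range of the females used below, 4.55 to 7.72, ends at 19610 and 17907. These fits were not repeated without such libraries. The slopes of females and males were then compared directly in 1 fit: their medians were -0.23 and 0.068 for the shared list. In that fit 6 of the 14 fell in females, where 3874 of all 25173 genes did. In males 0 of the 14 fell, where 3884 of all genes did. In edgeR's test of female minus male slopes 0 genes of the 3 medium spiny neuron lists passed, where 481 genes higher and 176 lower in females passed out of all 25173, while 13 of 14 shared, 3 of 8 D1 and 5 of 7 D2 genes had an unadjusted p under 0.05. When both sexes were held to the index range of the females, 0 of 14, 1 of 8 and 0 of 7 did, no gene of 25338 passed, and the medians of the shared list were -0.23 in females and -0.069 in males. No difference between the sexes was called in these lists.

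Of the genes used by neurons in general most overlapped between the sides, while most fell with the index elsewhere. Snap25, of the vesicle fusion machinery, had 420, 518, 609 and 649 CPM in the high libraries against 976, 743, 810 and 1050 CPM in the low ones, a log2 difference of -0.71. Gria2, an AMPA receptor subunit, had 392, 452, 621 and 582 CPM against 685, 671, 790 and 746 CPM. Those 2 were the only genes of 23 to lie wholly lower, a smaller share than the 13.1% of all genes. The median log2 difference was -0.38, and it was -0.25 without library 19762 and also with total-count scaling. In the other libraries 16 of the 23 fell with the index and none rose, and Snap25 fell by 0.217 ± 0.0385 (adjusted p = 2.09e-06, edgeR). Gria2 was chosen after its values were seen.

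Transcripts of cortical neurons varied widely within both sides. Slc17a7, the vesicular glutamate transporter of cortex, had 25, 2.74, 110 and 112 CPM in the high libraries against 217, 18.7, 63.2 and 339 CPM in the low ones, and it fell with the index in the others by 0.894 ± 0.256 (adjusted p = 0.00271, edgeR). None of the 10 cortical genes separated the sides, and 9 fell with the index. With the mean of the cortical list added to the model, 4 of the 23 general neuronal genes fell with the index, against 16 without it, and 0 shared medium spiny neuron genes did. Of 12 interneuron genes 1 lay wholly lower, against 13.1% of all genes. That gene was Gad1, at 298, 306, 299 and 297 CPM in the high libraries against 371, 332, 402 and 371 CPM in the low ones. In the other libraries 5 interneuron genes fell and 1 rose, against 22.7% and 25.6% of all genes.

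Among genes induced by neuronal activity a few separated the sides, no larger a share than among all genes (22.4% wholly higher and 13.1% wholly lower). Fos had 28.5, 20.6, 24.4 and 16.6 CPM in the high libraries against 8.97, 5.75, 16.1 and 7.12 CPM in the low ones, and Ier2 had 6.95, 5.62, 5.48 and 4.31 CPM against 1.52, 1.19, 1.73 and 1.52 CPM. Gadd45b, which stress and cytokines also induce, had 18.1, 15.5, 16.6 and 18.9 CPM in the high libraries against 5.45, 3.43, 4.85 and 5 CPM in the low ones. Of 26 genes 5 lay wholly higher, and Homer1, a scaffold of the synapse, was the 1 wholly lower, at 119, 138, 205 and 202 CPM against 223, 277, 285 and 321 CPM. Arc, Egr1, Npas4 and Nr4a1, chosen after their values were seen, all overlapped. In the other libraries 9 of the 26 rose and 2 fell.

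Trhr, the receptor for thyrotropin-releasing hormone, was among the genes furthest lower outside the lists. It had 3.91, 11.3, 4.52 and 18.2 CPM in the high libraries against 39.8, 37.8, 35.2 and 33.3 CPM in the low ones, so that the low side was even and the high side was not. It fell with the index by 0.278 ± 0.0961 (adjusted p = 0.0129, edgeR). Kirrel2, an adhesion protein, had 2.32, 2.19, 2.38 and 1.73 CPM in the high libraries against 6.42, 7.67, 7.94 and 5.92 CPM in the low ones.

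Genes of the cell cycle were higher throughout. Top2a, the topoisomerase of dividing cells, had 119, 61, 73.5 and 80.6 CPM in the high libraries against 6.88, 7.33, 17 and 4.35 CPM in the low ones, and Birc5, of the mitotic spindle, had 9.68, 6.79, 6.22 and 8.89 CPM against 0.904, 0.553, 1.01 and 0.149 CPM. All 14 genes of the list lay wholly higher, with a median log2 difference of 3.06, and all 14 rose with the index. Which cells were dividing cannot be read from whole tissue.

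Most genes of the stress programmes overlapped, and the wholly higher ones stand against 22.4% of all genes. Cdkn1a, an inhibitor of the cell cycle that damage, glucocorticoids and cytokines induce, had 24.5, 18.6, 20.4 and 9.23 CPM in the high libraries against 2.5, 4.93, 5.79 and 3.93 CPM in the low ones. Nfkbia, the inhibitor of NF-kappaB, had 65.5, 49.2, 53.8 and 52.7 CPM against 16.1, 18.7, 16.9 and 14 CPM. Mt2 was the third of 11 glucocorticoid-responsive genes to lie wholly higher, while Fkbp5 and Tsc22d3, chosen after their values were seen, overlapped. Of 8 heat shock genes Hspa5 alone lay wholly higher, at 483, 408, 415 and 474 CPM in the high libraries against 269, 240, 272 and 269 CPM in the low ones. Haemoglobin and other erythrocyte genes overlapped in all 5 cases, with a median log2 difference of -0.74 that was -0.45 without library 16760. In the other libraries all 5 fell with the index, with a median slope of -0.203, where 22.7% of all genes fell.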

How the data were processed

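Total RNA of nucleus accumbens was sequenced and the authors deposited whole-number counts of reads per gene for all libraries in 1 table. Per the submitters' processing notes, the tools were HISAT2, featureCounts (Subread), SAMtools, Trim Galore and DESeq2 1.27, and the genome build was mm10. Neither the annotation nor the strandedness of the counting step is stated there, so overlapping and antisense genes may share reads. Of 88 labelled libraries 87 had a column, and 1 column without a label was left out.

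From the counts, edgeR 4.0.16 in R 4.3.3 gave TMM-scaled CPM, and log2 values used a prior count of 2. The contrast between the 4 high and 4 low libraries is a description: a gene was counted when the sides did not overlap, and at least 2-fold where stated, with a mean of at least 0.5 CPM. Slopes on the immune index were tested in the other 79 libraries with edgeR's quasi-likelihood test (robust, genes filtered by group, group and batch as factors) and Benjamini-Hochberg adjustment at 0.05. The index genes' own slopes are not results. The procedure was tested on simulated data in which every gene varied alike between libraries and few genes changed. That setting is simpler than these libraries, where many genes had called slopes and some libraries were dominated by a few genes. DESeq2 1.42.0, limma 3.58.1 and other settings were alternatives. Coordinates come from a GENCODE annotation of mm10 and promoters from RefSeq.

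The members, gene lists and tests were chosen with earlier results of these data known. Named genes are the 5 markers of the split, up to 4 members of each list with the largest absolute difference at a mean of at least 1 CPM, and the 10 highest, 10 lowest and 10 of each slope direction outside the lists. Fosb, Irgm2, Ifi27, Ifnb1, Ifngr1, C1qa, Il18, Sall1, Nes, Fbln5, Amigo2, Aspa, Mal, Pdgfra, Neu4, Jam2, Acta2, Myh11, Rgs2, Eya1, Gad1, Homer1 and Top2a were chosen after their values were seen.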

Additional observations from a re-analysis of the deposited data

Results flagged for a closer look

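In 15 of 342 sets of 4 libraries examined, 1 library lay far from the other 3 by Dixon's criterion, in which the gap to the nearest neighbour is given as a part of the whole range on the log2 scale. Chance gives about 1 in 20. On the low side, library 19598 stood highest for Gzmb (gap 0.88 of the range, 3.71 CPM against 0.817 CPM in the nearest), Gbp8 (0.863), Il2rg (0.861) and Tac1 (0.904, 296 CPM against 225 CPM). Library 19750 stood highest for the plasma cell gene Jchain (0.959, 1.66 CPM against 0.357 CPM) and for Selp, where it alone had a count (gap of 1). It stood lowest for the haemoglobin genes Hbb-bt (0.897) and Hba-a2 (0.848), whose reads may be shared with close copies. Library 19754 stood lowest for Tk1 (0.867), of DNA synthesis, and Kl (0.898), and library 19599 for the chaperone gene Hspa5 (0.9, 240 CPM against 269 CPM). On the high side, library 19719 stood lowest for B2m (0.91, 1070 CPM against 1400 CPM), Gbp2 (0.889, 724 CPM against 935 CPM) and Zbp1 (0.951, 59.3 CPM against 74.1 CPM). Library 16760 stood highest for C3 (0.894, 702 CPM against 297 CPM).

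Among the genes named, 6 had slopes on the immune index that differed between the sexes in the other 79 libraries by edgeR's test of the difference (42 female and 37 male libraries). The difference, female minus male, was 0.672 for the microglial gene Fcrls, 0.876 for Lgals3, 0.597 for Ier2, 0.372 for Top2a, 0.349 for Birc5 and -0.245 for Homer1. When both sexes were held to the index range of the females, no gene of 25338 passed this test.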

How the results depend on the processing

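Of the differences between the sides for named genes, 2034 values under the alternatives stayed within the spread of the main ones and 6 moved. Of their slopes, 3224 kept direction and call, 92 kept direction and lost the call, and 6 reversed. Within F_D1-D2-targeted alone Hbb-bt had a slope of 0.27, Hbb-bs 0.003 and Pvalb 0.351, and the cause was not tested. With the cortical list as covariate Neurod6 had 0.014, Slc17a7 0.159 and Neurod2 0.058. These cortical genes are members of that list, so the covariate takes up most of their slope by construction. Genes at least 2-fold lower numbered 468 with no filter on low counts and 118 with scaling by total counts, against 192. Leaving out each of the 8 libraries gave 2430 to 2743 higher genes and 149 to 320 lower ones, the last without library 19762. F_D1-D2-targeted alone, with fewer samples, had 1817 genes that rose with the index and 867 that fell. The split of 6442 rising and 5702 falling became 5810 and 7930 with DESeq2, 5803 and 7421 with DESeq2 size factors, and 5748 and 8215 with limma-voom. Leaving out libraries of M_D1-D2-targeted and M_D1-control in turn gave 5969 to 6824 and 5308 to 7126. The median difference over all genes was 0.002 with TMM, -0.039 with DESeq2 size factors and 0.13 with total counts. Small list medians changed sign. With 1 library left out, activity-induced genes reached 0.01, glucocorticoid-responsive genes -0.02 and choroid plexus genes -0.15. Interneuron genes had 0.03 with total counts, and choroid plexus genes -0.02 with DESeq2 size factors. No paired analysis was possible because the library numbers are unique and no number is shared between groups.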
